A study of Mus musculus with 2 samples.

Results

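The loci of 6 transcriptional regulators of natural killer (NK) cells, Ets1, Id2, Nfil3, Zeb2, Gata3 and Prdm1, were examined in a map of Runx3 binding. Each locus was taken as a fixed window of mm9 around the gene, and a Runx3 peak belonged to it where the midpoint of the peak lay in the window. The windows were chr9:32400000-32620000 for Ets1, chr12:25600000-25950000 for Id2, chr13:52960000-53160000 for Nfil3, chr2:44780000-45050000 for Zeb2, chr2:9700000-9900000 for Gata3 and chr10:44080000-44260000 for Prdm1. Together they spanned 1420 kb and held 57 of the 19647 peaks in the list (0.290%). The map was made by chromatin immunoprecipitation sequencing (ChIP-seq) of splenic NK cells from ICR mice, wild type per the series' design text, that had been injected 2 times with complexes of IL-15 and its alpha receptor, with 2 days between injections. NK cells were enriched by negative selection and sorted for NKp46, a receptor that marks them, and how many mice were pooled is not stated in the labels. The Runx3 library (n = 1) was made with a home-made polyclonal antibody, and the control library (n = 1) with rabbit serum that was non-immune, from the same kind of cells. No library of untreated mice and no values of the serum library were used here, so nothing below speaks of a response to IL-15.

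The peak list gives positions only, with no height, score or read count, and it was taken as deposited. Its deposited name holds the words "to small", which no source used here explains, so the list may be a reduced set, in which case every count, density, share and empty stretch below refers to that set. The depth behind a peak is unknown. With 1 Runx3 library there is no replicate, so the values below describe this list, and no test between groups was made. No annotation of mm9 was used, so whether a peak lies in a promoter, exon or intron, and its distance from a gene's start, were not analysed here. A peak in a window is not thereby a peak of the gene the window is named for. In the GRCm38 annotation, the nearest protein-coding genes on either side are Fli1 and Kirrel3 for Ets1, Kidins220 and Rnf144a for Id2, Auh and Ror2 for Nfil3, Gtdc1 and Acvr2a for Zeb2, Celf2 and Taf3 for Gata3, and Atg5 and Prep for Prdm1. Fli1 is a close relative of Ets1.

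Runx3 is a Runt-domain factor that binds DNA together with Cbfb at the RUNX motif and is active in cytotoxic T cells and NK cells. The 6 regulators act at different steps of the NK lineage. Id2 and Nfil3 are needed for NK cells to develop. Id2 is a helix-loop-helix protein that has no DNA-binding domain and holds E proteins inactive. Nfil3 is a basic leucine zipper factor required for conventional NK cells to form. Ets1, the founding ETS family factor, and Gata3, a zinc finger factor best known for type 2 helper T cells, also take part in NK cell development. Zeb2, a zinc finger and homeodomain repressor, and Prdm1 (Blimp-1), a PR-domain zinc finger repressor, act late, in terminal maturation.

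No genome of the peaks' build was at hand, so the sequences under the peaks are not shown. For the 3 loci with the highest peak density as listed, Id2, Nfil3 and Prdm1, 250 bases of promoter are printed. They lie before the start of each gene and come from RefSeq promoters on GRCm38.p6. Coordinates on that build cannot be set against the mm9 windows, and no peak was placed on these sequences. Capitals mark TGTGG or TGCGG, the first 5 letters of the RUNX motif, read on either strand. The first is Id2, chr12:25096093-25096342 on the minus strand, the second Nfil3, chr13:52981040-52981289 on the minus strand, and the third Prdm1, chr10:44458749-44458998 on the minus strand.
Id2: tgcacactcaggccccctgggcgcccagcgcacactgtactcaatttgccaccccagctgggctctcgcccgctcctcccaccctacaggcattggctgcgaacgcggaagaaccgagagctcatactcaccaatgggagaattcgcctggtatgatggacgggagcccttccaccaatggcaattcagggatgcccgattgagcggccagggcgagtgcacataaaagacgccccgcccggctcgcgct
Nfil3: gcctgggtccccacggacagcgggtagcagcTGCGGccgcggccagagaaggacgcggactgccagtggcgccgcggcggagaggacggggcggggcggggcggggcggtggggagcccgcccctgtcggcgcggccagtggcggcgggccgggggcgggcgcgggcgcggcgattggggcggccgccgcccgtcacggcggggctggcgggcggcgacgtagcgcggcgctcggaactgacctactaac
Prdm1: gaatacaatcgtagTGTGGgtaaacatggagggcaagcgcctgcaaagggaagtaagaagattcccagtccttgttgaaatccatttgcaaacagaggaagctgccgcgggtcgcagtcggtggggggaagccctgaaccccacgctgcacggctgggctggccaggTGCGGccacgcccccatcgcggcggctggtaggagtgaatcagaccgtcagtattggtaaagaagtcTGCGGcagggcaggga

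In these stretches Prdm1 had 3 such matches, Nfil3 had 1 and Id2 had 0. The full 6-letter motifs TGTGGT and TGCGGT were searched on both strands over 300 bases (250 before to 50 after the start). They were in 0 of the 8 promoters listed for Id2, Nfil3, Zeb2, Gata3 and Prdm1, of which 4 are of Zeb2 and overlap in part. Of all 32851 promoters in the table, 22.4% held at least 1 of these motifs. Over the same 300 bases, TGTGG alone was in 55.9% of all promoters and TGCGG in 31.6%, so a 5-letter match is common. The counts of 5-letter matches above cover only 250 bases. Over 300 bases Id2 also held a TGTGG, 44 bases after its start. Matches were not limited to the printed loci. Gata3 held a TGTGG at base -4 from its start, and promoters of Zeb2 held TGCGG at -62, 3 and 29. Of 26 other NK cell regulators listed for this purpose, 22 had a promoter in the table, with 40 promoters between them. Of these 40 promoters, 4 held a 6-letter motif, 1 each at Runx3, Runx1, Irf8 and Stat5a. A match, or its lack, describes these letters in this stretch and not binding.

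The first comparison set the loci beside one another. The windows differed in length, so peaks per 100 kb are given, with exact 95% Poisson intervals that cover counting error only and treat peaks as independent. Nfil3 had 11 peaks, 5.50 per 100 kb (2.75 to 9.84). Id2 had 19 peaks, 5.43 per 100 kb (3.27 to 8.48). Prdm1 had 9 peaks, 5.0 per 100 kb (2.29 to 9.49). These 3 loci were near one another in density, and the other 3 were lower. Ets1 had 7 peaks, 3.18 per 100 kb (1.28 to 6.56), Gata3 had 6, 3.0 per 100 kb (1.10 to 6.53), and Zeb2 had 5, 1.85 per 100 kb (0.601 to 4.32).

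Most of this order was within counting error. Of the 15 pairs of loci, 1 had a 95% interval of the density ratio that left out 1: Id2 against Zeb2, at 2.93-fold (1.06 to 10.1, exact conditional interval, not adjusted for the 15 pairs). Neighbouring loci in the order did not differ beyond that error, the larger steps being Prdm1 against Ets1 with a ratio of 1.57 (0.521 to 4.97) and Gata3 against Zeb2 with 1.62 (0.412 to 6.71). Joining peaks with gaps of up to 1000 bp left 16 regions at Id2 and 5 at Zeb2, and the ratio was then 2.47 (0.864 to 8.62), with 0 of 15 intervals leaving out 1. All these ratio intervals treat peaks as independent. Peaks lay in groups along each chromosome, so the intervals are likely too narrow, and Id2 against Zeb2 is not a tested difference. Among peaks at or above the median width of the list the order was another. Nfil3 and Gata3 had 2.00 per 100 kb each, Ets1 1.82, Id2 1.71, Prdm1 1.11 and Zeb2 0.370. Other settings also reordered the densest loci. In common windows of 180 kb, Prdm1 had 5.0 per 100 kb, and Nfil3 and Id2 had 4.44 each. With gaps of up to 1000 bp joined, Prdm1 and Nfil3 had 5.0 each and Id2 had 4.57. Zeb2 was lowest in each of these settings.

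**Figure D1:**
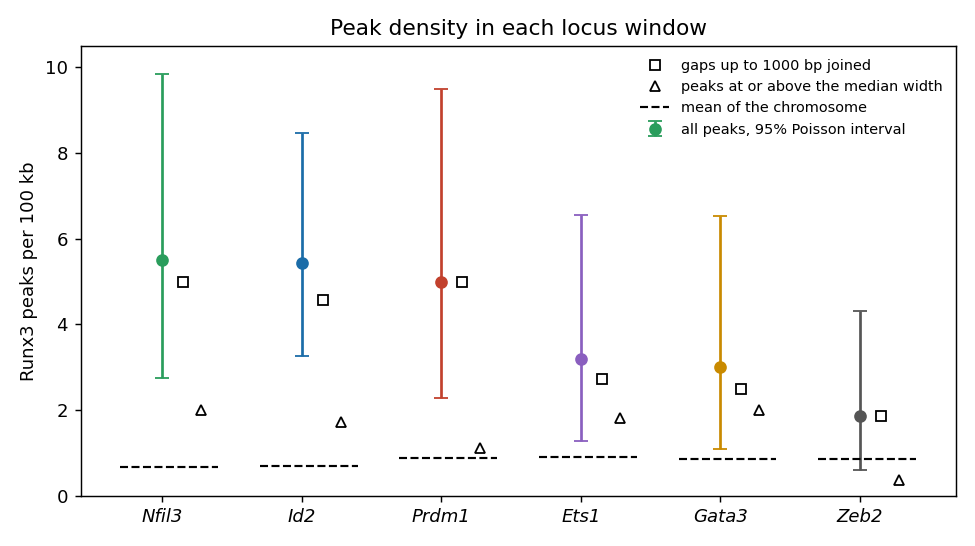
Runx3 peaks per 100 kb in each locus window (vertical axis), with exact 95% Poisson intervals; squares show the density after joining gaps of up to 1000 bp, triangles that of peaks at or above the median width, and dashed lines the mean of the chromosome. Nfil3, Id2 and Prdm1 lie between 5.0 and 5.50, Zeb2 lies lowest at 1.85, and the intervals overlap widely.

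The second comparison set each locus beside windows of its own length on the same chromosome, laid end to end outwards from the locus between the first and the last peak. Id2 stood near the top of chromosome 12: 3 of 330 windows of 350 kb (0.909%) held 19 or more peaks, and 0 held more than 19. Nfil3 was similar on chromosome 13, where 6 of 582 windows of 200 kb (1.03%) held 11 or more. For Prdm1, 23 of 703 windows of 180 kb on chromosome 10 (3.27%) held 9 or more peaks. The other loci were reached more often. For Ets1, 44 of 547 windows of 220 kb on chromosome 9 (8.04%) held 7 or more, and for Gata3, 89 of 890 windows of 200 kb on chromosome 2 (10%) held 6 or more. For Zeb2, 129 of 658 windows of 270 kb on chromosome 2 (19.6%) held 5 or more.

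The density at the loci was 8.09 times the chromosome's mean at Nfil3, 7.82 times at Id2, 5.71 times at Prdm1, 3.54 times at Ets1, 3.51 times at Gata3 and 2.17 times at Zeb2. Peaks lay in groups along each chromosome, and between 47.4% (Zeb2's windows) and 59.2% (Prdm1's windows) of the equal windows held no peak. Among windows with at least 1 peak, the share that reached the locus was higher: 1.89% for Id2, 2.45% for Nfil3, 8.01% for Prdm1, 15.8% for Ets1, 21.2% for Gata3 and 37.3% for Zeb2. The order of the loci was the same by this share as by the share over all equal windows. These windows are not random draws, genes per window were not compared, and the shares are a description with no test.

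**Figure D2:**
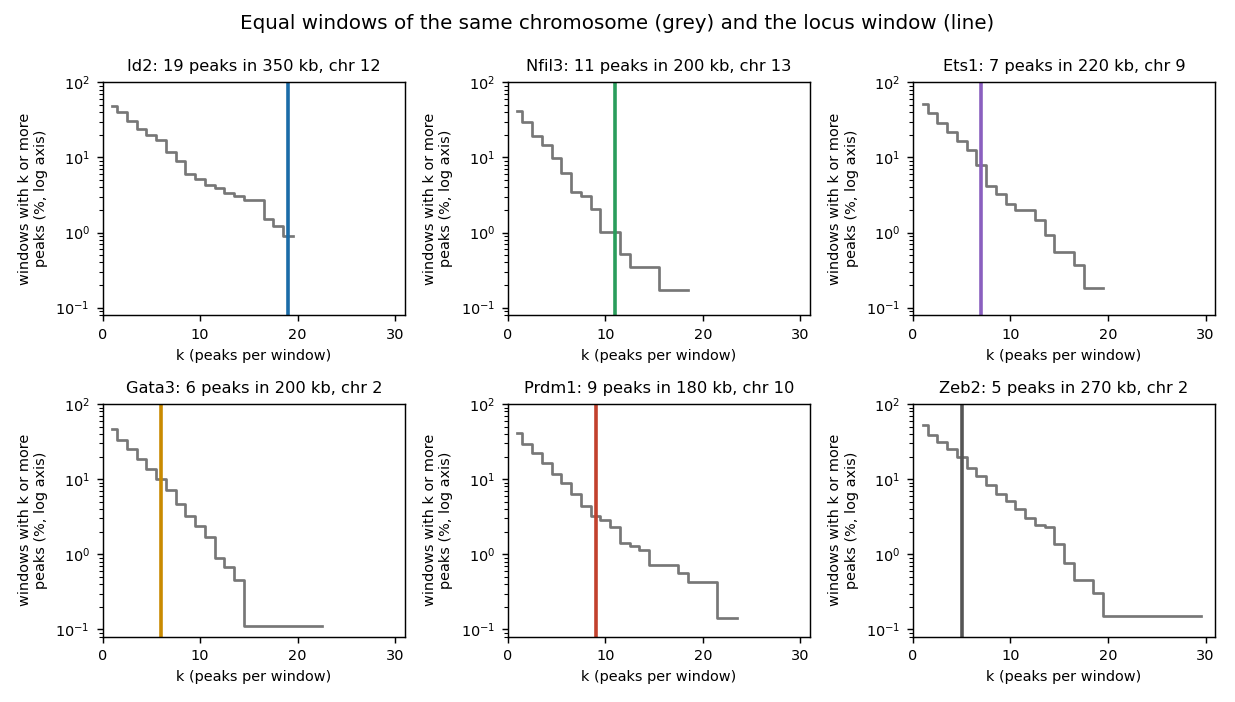
Each panel shows, for windows of the locus's length on its chromosome, the share holding k or more Runx3 peaks (grey step line, percent on a log axis) against k; the coloured line marks the count in the locus window. The line for Id2 (19 peaks) stands at the end of the grey curve, and that for Zeb2 (5 peaks) crosses it at 19.6%.

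The length of DNA under peaks gave a second measure. Peaks covered 3.42% of the Nfil3 window, 2.85% of Id2, 2.81% of Prdm1, 2.15% of Gata3, 1.93% of Ets1 and 1.10% of Zeb2. At Nfil3, 0.859% of equal windows were covered to at least this extent, and at Id2 2.73%. The share was 4.69% at Prdm1, 7.3% at Gata3, 9.69% at Ets1 and 19% at Zeb2. By this measure Nfil3 rather than Id2 had the smaller share, and Gata3 came before Ets1.

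At Id2, the peaks were crowded into one side of the window. The 2 lowest, chr12:25630478-25630871 and chr12:25659610-25660148, were followed by 117.5 kb without a peak, and the other 17 lay above the centre of the window. The largest stretch, in which neighbouring midpoints are at most 10 kb apart, held 6 peaks in 8.32 kb (chr12:25777667-25785982). In it, peaks of 392, 655, 448, 512, 453 and 477 bp followed one another, and 2 of the 5 gaps measured 54 and 88 bp. These 2 were the only gaps under 100 bp among the 51 neighbouring pairs inside the 6 windows. In the whole list, 389 of 19627 neighbouring pairs had such a gap. Whether the 2 gaps part single regions listed as 2 peaks was not tested. Runs of 6 peaks in 8.32 kb or less took in 80 of the 19647 peaks (0.407%). This share rests on the peaks as listed: with gaps of up to 1000 bp joined, the largest stretch at Id2 held 4 regions. Another 11 peaks reached up to chr12:25939594-25940055, among them the widest of the locus, chr12:25924854-25925614, with 761 bp. The narrowest was the first of the large stretch, with 392 bp. The density went on past the window: 5 more peaks lay in the next 100 kb, the nearest 3.92 kb outside the edge. The share of equal windows with as many peaks as Id2 moved with the setting: it was 0 of 257 with the window extended by 50 kb on both sides, 18 of 645 (2.79%) with windows of 180 kb, and 18 of 330 (5.45%) for peaks at or above the median width.

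At Nfil3, 4 peaks lay in the lower part of the window, from chr13:52969295-52969778 to chr13:53024613-53025235, and 7 in the upper part. The largest stretch held 5 peaks in 21.2 kb (chr13:53076350-53097505), of 595, 1108, 602, 628 and 876 bp. The peak of 1108 bp, chr13:53084079-53085186, was the widest of the locus, and 6.91% of the list was as wide or wider. The narrowest, chr13:53010141-53010533, measured 393 bp. As listed, the stretch was less compact than that at Id2: runs of 5 peaks within 21.2 kb took in 9.49% of the list. With gaps of up to 1000 bp joined, the largest stretch at Nfil3 held 4 regions, as many as at Id2. The last peak, chr13:53158458-53159030, lay 1.26 kb inside the edge, and a peak of 927 bp lay 0.838 kb outside it, so a small shift of the edge changes this count.

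At Prdm1, the 9 peaks were spread over the window with no long stretch. From the lower end they were chr10:44123079-44123588 (510 bp), chr10:44129670-44130265 (596 bp), chr10:44149033-44149746 (714 bp), chr10:44167884-44168442 (559 bp), chr10:44178172-44178936 (765 bp) and chr10:44202796-44203281 (486 bp). The last 3, chr10:44246797-44247335, chr10:44252290-44252651 and chr10:44258640-44259159, measured 539, 362 and 520 bp and formed the largest stretch, 12.4 kb long. No gap at Prdm1 was under 1000 bp, so joining left all 9 peaks. Beyond this stretch, whose last peak was 1.10 kb inside the edge, the next peak lay 281.7 kb outside the edge. The peak of 362 bp was the narrowest of the 57.

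At Ets1, the 7 peaks lay from the lower edge of the window to 8.10 kb above its centre. They were chr9:32401841-32402416 (576 bp), chr9:32423376-32423977 (602 bp), chr9:32424825-32425341 (517 bp), chr9:32469132-32469778 (647 bp), chr9:32503240-32503872 (633 bp), chr9:32513513-32514180 (668 bp) and chr9:32517795-32518402 (608 bp). Their widths were the most alike of the 6 loci, within 517 to 668 bp, and above the last of them 101.9 kb of the window were empty. Below the window 51.3 kb were empty up to the next midpoint, but the 100 kb below it held 9 peaks, of which 6 formed a stretch of 10.2 kb (chr9:32307640-32317862). Whether these belong to Ets1, to Fli1 or to neither was not analysed here.

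At Gata3, 4 of the 6 peaks formed a single stretch of 8.90 kb close to the centre of the window (chr2:9792663-9801562). Its members measured 1271, 638, 565 and 610 bp. The first, chr2:9792663-9793933, was the widest of all 57 peaks, and 3.38% of the list was as wide or wider. The remaining peaks stood apart, at chr2:9722962-9723636 (675 bp) and chr2:9868278-9868819 (542 bp), 70.0 kb below and 67.3 kb above the stretch between midpoints. Runs of 4 peaks in 8.90 kb or less took in 5.02% of the list.

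At Zeb2, none of the 5 peaks lay within 10 kb of another. They were chr2:44782439-44783303 (865 bp), chr2:44837144-44837650 (507 bp), chr2:44958428-44958903 (476 bp), chr2:44970048-44970632 (585 bp) and chr2:44994318-44994845 (528 bp), with 120.8 kb empty between the second and the third. The locus was the least dense of the 6, though at 2.17 times the mean of its chromosome, and it stood alone. The nearest peak below the first was 1137 kb away and the nearest above the last 2865 kb away. The 1000 kb on either side of the window held 0 peaks. At the other loci the same flanks held 12 (Gata3), 15 (Prdm1), 18 (Id2), 20 (Ets1) and 25 (Nfil3) peaks. Of the 129 equal windows of chromosome 2 with 5 or more peaks, 0 had empty flanks of this length. Those windows lay end to end and could cut a group at an edge, whereas the Zeb2 window held its whole group. This 0 is therefore not a measure of how rare such a group is. Over the whole list, 487 groups of peaks stood more than 1000 kb from the next on both sides. Of these, 107 spanned at most 300 kb, and among the 107 there were 46 single peaks and 17 groups of 5 or more peaks, the fullest with 10. The group at Zeb2 was thus not the only one of its kind.

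**Figure D3:**
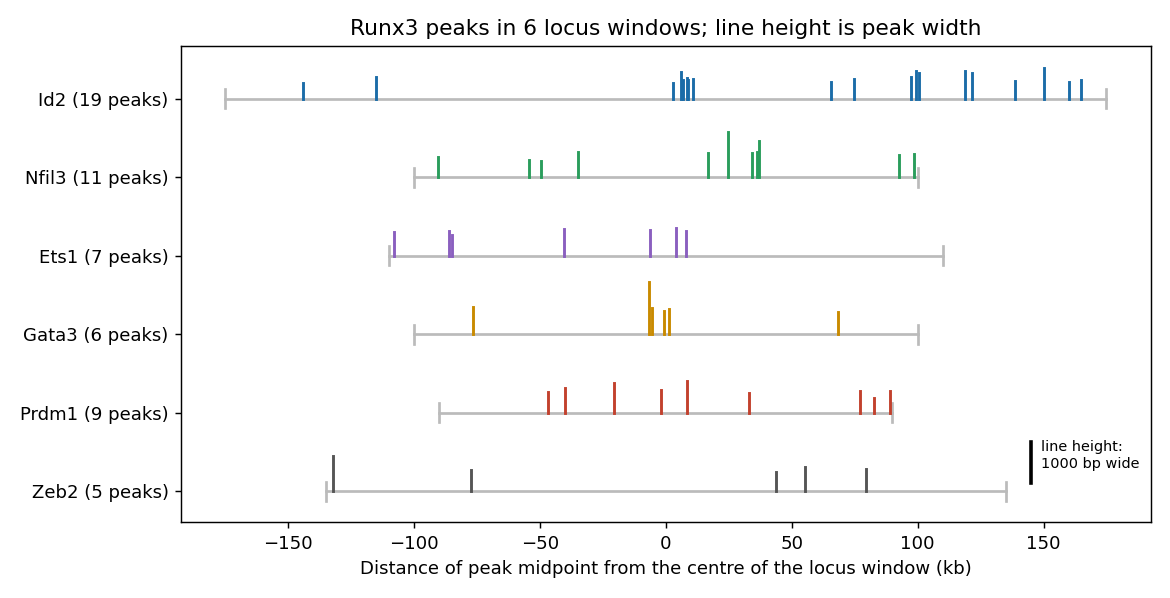
Runx3 peaks in the 6 windows, by distance of the midpoint from the centre of the window in kb; grey lines show the windows, and the height of each coloured line is the width of the peak. The 17 upper peaks of Id2, the stretch of 4 at the centre of Gata3 and the scattered 5 of Zeb2 can be seen.

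**Figure D4:**
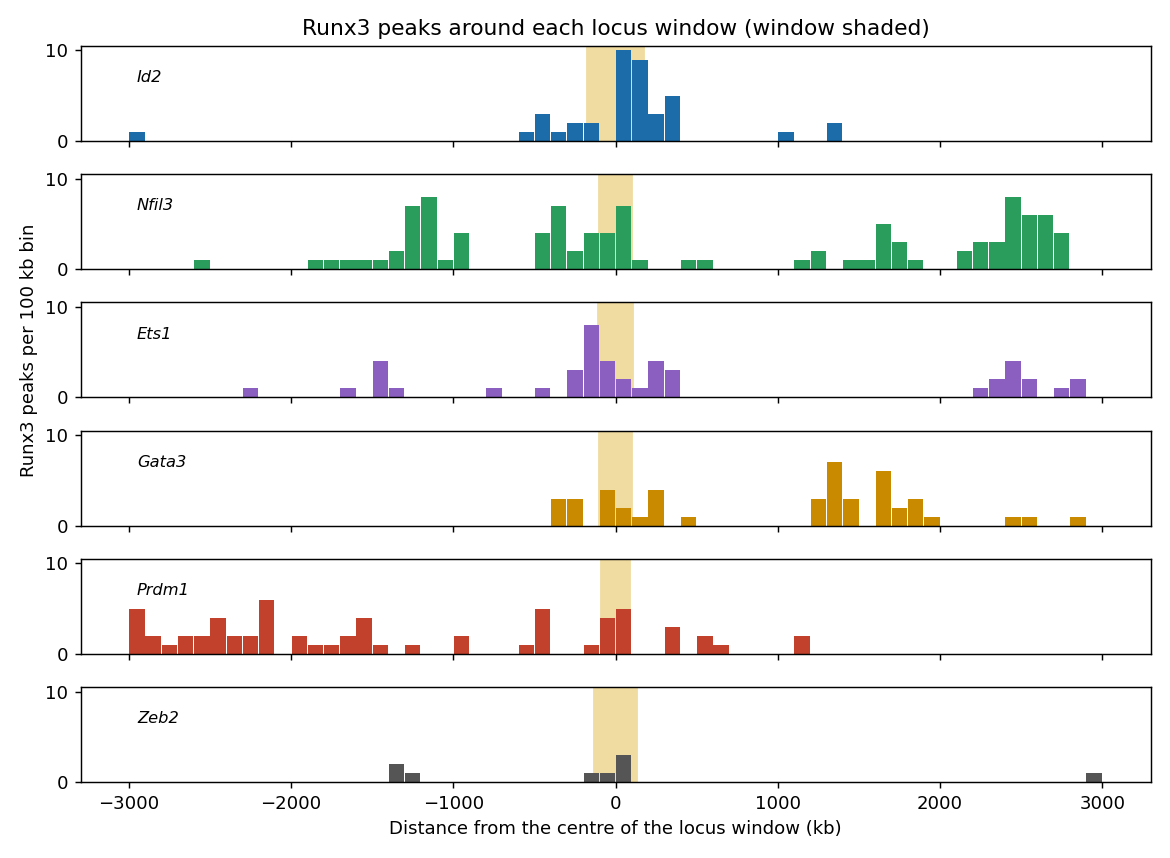
Runx3 peaks in bins of 100 kb (vertical axis) by distance from the centre of each locus window in kb, with the window shaded. Around Zeb2 the 1000 kb on either side of the window hold 0 peaks, while at Ets1 the 100 kb below the window hold 9 peaks, the nearest 51.3 kb from its edge, against 7 inside it.

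The ranking against the surroundings depended on how far these reached. Relative to the 1000 kb on either side, density was 6.67 times that of the flanks at Prdm1, 6.03 times at Id2, 5.0 times at Gata3, 4.40 times at Nfil3 and 3.18 times at Ets1. With 500 kb on either side the ratios were 4.17 at Prdm1, 3.19 at Id2, 2.75 at Nfil3, 2.50 at Gata3 and 1.67 at Ets1. With 100 kb they were 10 at Prdm1 and 6.0 at Gata3, where the 2 flanks together held 1 peak, 2.20 at Nfil3, 1.55 at Id2 and 0.579 at Ets1, whose window was thus less dense than its closest flanks. No ratio can be given for Zeb2, whose flanks were empty at each distance. Over the 51 neighbouring pairs inside windows, the median distance between midpoints was 10.3 kb, and 25 pairs (49.0%) were within 10 kb. Such pairs leave out the longer distances across the window edges by construction. With the neighbour beyond each edge included, 63 pairs had a median of 14.6 kb and 26 (41.3%) were within 10 kb, against 24.4 kb and 31.6% in the whole list. Inside the windows, the locus medians ran from 4.54 kb at Gata3, 7.07 kb at Id2 and 8.74 kb at Nfil3 to 14.6 kb at Prdm1, 15.9 kb at Ets1 and 39.4 kb at Zeb2.

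Peak width was not used to choose the loci. The 57 peaks had a median width of 565 bp (exact order-statistic 95% interval 520 to 608 bp), and the median of the list, 604 bp, lay inside that interval. Of the 57, 21 (36.8%) were wider than the list's median, against 49.9% of the list, and 2 (3.51%) were wider than 1000 bp, against 10.4%. Id2 had a median of 477 bp (431 to 637 bp), the lowest of the 6 loci as listed, and 6 of 19 peaks wider than the list's median. With the gaps of 54 and 88 bp closed by joining gaps of up to 100 bp, the median of Id2 was 539 bp, equal to that of Prdm1 and above that of Zeb2, and with gaps of up to 1000 bp joined it was 508 bp. The median of chromosome 12, 586 bp, was inside the interval. The medians of Zeb2 (528 bp) and Prdm1 (539 bp) were also below 604 bp, that of Nfil3 was 595 bp, and those of Ets1 (608 bp) and Gata3 (624 bp) were above it. Peaks of 1 locus share their region and are not replicates, but the width intervals treat them as independent. No test of width was made.

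**Figure D5:**
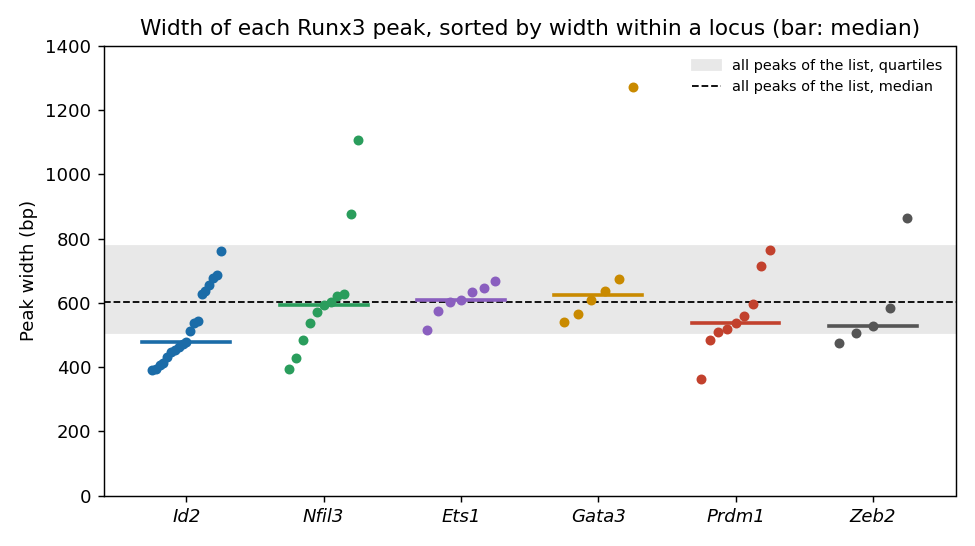
Width in bp of each of the 57 Runx3 peaks by locus, with a bar at the locus median; the dashed line and grey band show the median (604 bp) and quartiles (506 to 778 bp) of the whole list. Most peaks of Id2 lie below the dashed line, and 2 peaks, at Nfil3 and Gata3, exceed 1000 bp.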

How the data were processed

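Per the labels' protocols, 40000000 NK cells were fixed in 1% formaldehyde, sheared to about 200 bp and sequenced in reads of 50 bp, which were aligned with ELAND. Per the submitters' processing notes, CASAVA 1.8.2 and mm9 were used. No source used here names the peak caller, its threshold or the part of the serum library in the calling. The file the authors deposited is 1 list with a chromosome, start and end for each Runx3 peak, and no other unit. Starts count from 0 in the file and from 1 here.

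The windows were given with the loci, and loci, lists and measures were chosen with earlier results of these data known. All 6 genes are named, with every peak where a window holds up to 10, and otherwise the first, last, widest and narrowest and the largest stretch. Values were computed with Python 3.11.15, numpy 2.4.6 and scipy 1.17.1. The counting steps were tested on 20 simulated lists, and all known counts were recovered in 20. Gene order and promoters came from RefSeq tables on GRCm38.p6, matched by symbol: 6 of 6 genes matched in the first and 5 of 6 in the second. Alternatives changed the membership rule, the peaks used, the window size, the equal windows and the chaining distance. Surroundings of 100, 500 and 1000 kb, the 5-letter motif and the 50 kb extension were added after the data were seen.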

Additional observations from a re-analysis of the deposited data

How the results depend on the processing

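The values were recomputed 168 times over the 6 loci, and 134 stayed within the limits set for their measure. These limits were a Poisson interval for density and coverage, a Wilson interval for shares, and 1.5 times for stretches. For widths they were the order-statistic interval, or at Zeb2 the range of its peaks. Some settings could move little: joining changed no peak at Zeb2 or Prdm1, and counting peaks by overlap left all 6 densities the same. The 134 is thus no measure of robustness. Keeping peaks at or above the median width, which shortens the list by construction, lowered the density per 100 kb to 1.71 at Id2, 2.00 at Nfil3, 0.370 at Zeb2 and 1.11 at Prdm1, and the covered share to 1.16%, 1.62%, 0.320% and 0.822%. The share of equal windows with as many peaks was then 5.45% at Id2, 4.12% at Nfil3, 40.9% at Zeb2, 7.42% at Gata3 and 16.9% at Prdm1. Among windows with a peak it was 15.8% at Ets1, 2.45% at Nfil3, 37.3% at Zeb2, 21.2% at Gata3 and 8.01% at Prdm1. With windows extended by 50 kb on both sides it was 12.8% at Ets1, 0.0% at Id2 (0 of 257), 26.5% at Zeb2, 17.5% at Gata3 and 6.87% at Prdm1. With 180 kb windows it was 2.79% at Id2, 16.1% at Zeb2 and 8.09% at Gata3, and with 100 kb windows 34.4% at Zeb2 and 7.01% at Gata3. It was 10.8% at Ets1 after joining gaps of up to 1000 bp, and 0.304% at Id2 with windows laid from position 1. The largest stretch was 3 at Nfil3 and 1 at Prdm1 when chained at 5 kb, and 2 at Zeb2 and 5 at Prdm1 at 20 kb. The cause was not tested. No paired analysis was possible because there is 1 Runx3 library and no replicate. Read depth is unknown, and so is the number of weak sites missed.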
